A study of Mus musculus with 6 samples.

Results

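The interferon regulatory factors (IRFs) are transcription factors that share a DNA-binding domain near the N terminus, and 8 genes of the family were measured in macrophages treated with bacterial lipopolysaccharide. The members were the genes that the array's annotation names Irf1, Irf2, Irf3, Irf4, Irf5, Irf7, Irf8 and Irf9, which are 8 of the 10698 genes named on the array. Each had 1 probe, and each probe had a value other than 0 on all 6 arrays. RNA came from RAW 264.7 cells, a line of virus-transformed mouse macrophages that a few of the labels write as RAW 264.4. Treated cells were kept for 8 h with 100 ng/ml lipopolysaccharide (LPS) and 100 pM LPS-binding protein, and the other cells were kept for 8 h untreated. LPS coats Gram-negative bacteria, and its binding protein in serum hands it to the receptor CD14. Treated and untreated RNA were set against each other on 6 two-colour arrays, in 3 numbered sets. Each set had 1 forward array, on which treated RNA carried the dye Cy5 and untreated RNA Cy3, and 1 exchanged array, on which the dyes were the other way round.

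Every value below is a log2 ratio of treated over untreated RNA, so that 1 unit is a doubling. The table gives ratios only, and neither the level of an Irf transcript nor a comparison of levels between genes can be had from it. Which dye stands in the numerator is not stated in the table. Cy5 over Cy3 is the likely reading, since the labels use control for the Cy3 sample and test for the Cy5 sample, and each sign given here would turn under the other reading. Means and SDs are over the 3 set means, in which a dye effect cancels. Nothing in the labels makes the sets separate cultures, so p-values measure only how these 3 sets vary, and that variation may be technical. The number of arrays limits the precision. A change in the share of cells that make a transcript and a change in the RNA per cell cannot be told apart in such bulk RNA.

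IRFs bind DNA elements built from repeats of GAAA, found in the promoters of interferon genes and of genes that interferons induce. In macrophages, LPS acts through Toll-like receptor 4, whose adaptors lead to phosphorylation of IRF3 and to activation of NF-kappaB. Interferon beta made as a result acts back on the cell through STAT proteins, and a complex that holds STAT2 and IRF9, called ISGF3, induces a second wave of genes. IRF3 is made without stimulation and is governed mainly by phosphorylation, whereas the genes of IRF1 and IRF7 are themselves known targets of interferon signalling.

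In treated cells 5 of the 8 Irf genes rose and 0 fell in limma's moderated test at an adjusted p under 0.05. At an unadjusted p under 0.05 the counts were 6 and 1, with Irf2 and Irf4 added. The share of all genes passing at that unadjusted threshold was not counted, and Irf2 was higher on only 3 of 6 arrays. Irf7 rose most, followed by Irf1, Irf9, Irf8 and Irf5, with folds from 6.54 for Irf7 to 1.56 for Irf5. Irf2, Irf3 and Irf4 did not pass and had log2 ratios between -0.18 and 0.12. Over all 10088 genes tested, 33.7% passed, 17.1% higher and 16.7% lower, and the median log2 ratio was -0.0079, against a median of 0.78 over the 8 Irf genes. The genes were chosen as a family, with earlier results of these data known, so the 2 medians are set side by side as a description.

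The promoters of 4 members are shown because they hold either the largest change or the motifs that interferon and LPS signalling are known to use. They are the 250 bases before the annotated start in RefSeq, build GRCm38.p6, written 5′ to 3′ on the gene's strand, with motif matches in capitals. All 8 genes matched a promoter entry, with 11 annotated starts in all. The Irf7 promoter is chr7:141266425-141266674 on the minus strand, that of Irf1 chr11:53769764-53770013 on the plus strand, that of Irf8 chr8:120736108-120736357 on the plus strand and that of Irf2 chr8:46739495-46739744 on the plus strand. For Irf1 and Irf8 the first of 2 annotated starts is shown.
Irf7: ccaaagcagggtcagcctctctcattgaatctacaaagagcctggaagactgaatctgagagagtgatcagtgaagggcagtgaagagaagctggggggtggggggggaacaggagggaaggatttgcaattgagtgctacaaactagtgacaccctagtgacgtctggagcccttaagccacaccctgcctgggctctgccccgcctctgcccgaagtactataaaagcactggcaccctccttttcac
Irf1: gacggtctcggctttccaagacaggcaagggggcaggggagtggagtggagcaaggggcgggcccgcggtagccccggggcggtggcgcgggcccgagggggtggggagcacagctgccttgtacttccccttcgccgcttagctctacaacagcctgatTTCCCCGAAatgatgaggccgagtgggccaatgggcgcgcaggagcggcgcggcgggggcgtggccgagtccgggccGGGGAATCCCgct
Irf8: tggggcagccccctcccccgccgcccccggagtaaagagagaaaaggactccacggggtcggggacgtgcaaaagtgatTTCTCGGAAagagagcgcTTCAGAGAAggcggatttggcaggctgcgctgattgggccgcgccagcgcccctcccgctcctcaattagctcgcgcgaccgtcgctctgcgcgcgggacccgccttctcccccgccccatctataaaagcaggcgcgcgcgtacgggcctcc
Irf2: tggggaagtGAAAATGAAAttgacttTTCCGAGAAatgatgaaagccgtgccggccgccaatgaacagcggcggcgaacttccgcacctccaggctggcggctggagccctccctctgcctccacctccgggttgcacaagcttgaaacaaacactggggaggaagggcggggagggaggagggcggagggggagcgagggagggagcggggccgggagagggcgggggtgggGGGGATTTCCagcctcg

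Windows of 300 bases, 250 before to 50 after each start, were searched on both strands for 3 motifs. These were the core of the interferon-stimulated response element, read as GAAA and GAAA parted by 2 bases of any kind, the gamma-activated sequence of interferon gamma signalling, TTCNNNGAA, and the NF-kappaB consensus. Of all 32851 RefSeq promoter windows, 3.44% held the first, 8.3% the second and 8.46% the third. Among the Irf windows, the gamma-activated sequence was found in Irf1, as TTCCCCGAA from -90 to -82, in Irf2, as TTCCGAGAA from -224 to -216, and at 2 places in Irf8, as TTCTCGGAA from -171 to -163 and TTCAGAGAA from -153 to -145. The NF-kappaB consensus was found in Irf1, as GGGGAATCCC from -13 to -4, which matches on both strands, and in Irf2, as GGGGATTTCC from -17 to -8. The response element core was found only in Irf2 among these 11 windows, as GAAAATGAAA from -241 to -232, and no 2 of the 7 matches overlapped. A match is a stretch of letters and not a shown binding site. The 1 member with matches to all 3 motifs, Irf2, was among the 3 that did not pass the test. The Irf7 window held no exact match to any of the 3. Inexact matches and sites outside the windows were not searched, and whether a motif bears on a gene's ratio was not tested.

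**Figure D1:**
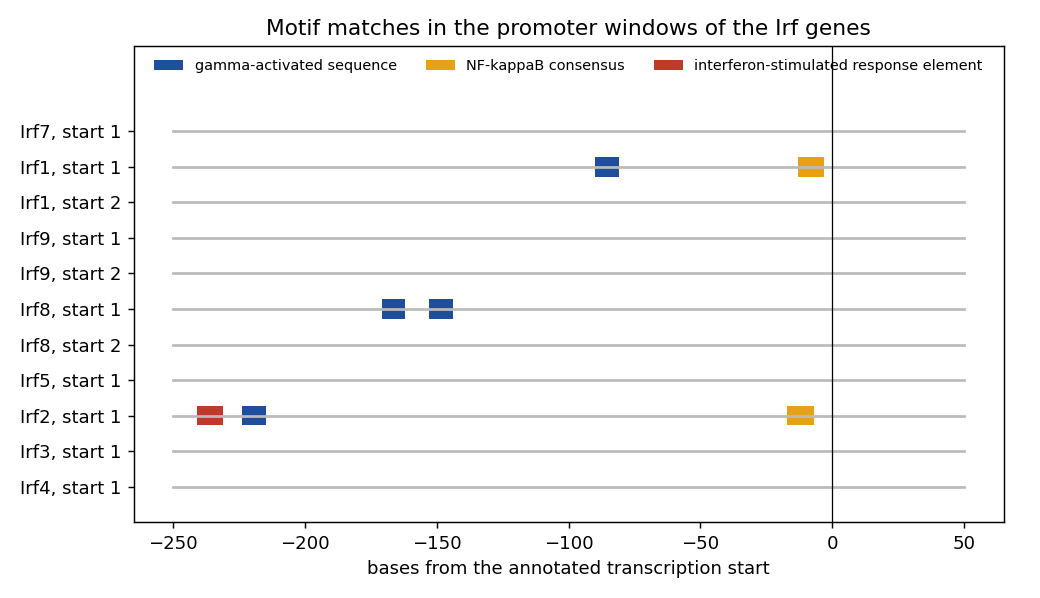
Matches to 3 motifs in the promoter windows of the 8 Irf genes, by bases from the annotated transcription start, with genes from the highest log2 ratio at the top to the lowest at the bottom and 1 line for each of 11 starts. Of the 11 windows, 3 hold the gamma-activated sequence, 2 the NF-kappaB consensus and 1, that of Irf2, the response element core.

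Irf7 encodes the factor that amplifies type I interferon production once a first round of interferon has been made. On the forward arrays of sets 1, 2 and 3 the log2 ratio was 3.33, 3.16 and 2.69, and on the exchanged arrays it was 2.49, 2.34 and 2.23. All 6 arrays gave a rise, and the forward arrays all lay above the exchanged ones. The mean was 2.71 ± 0.23 (SD, n = 3 sets), or 6.54-fold, with a 95% interval of 2.49 to 2.92 (limma's adjusted p = 1.2e-05). Irf7 stood at rank 56 of 10088 genes from the highest ratio, above 99.5% of them. Were the ratio read as Cy3 over Cy5, Irf7 would stand at rank 10033, and the order of the 8 Irf genes would be reversed.

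Irf1 encodes an activator first known for binding the interferon beta promoter, and it is a main mediator of the response to interferon gamma. In the same order of sets, the forward arrays gave log2 ratios of 1.87, 1.89 and 1.98 and the exchanged arrays 1.54, 2.25 and 1.96. The forward values lay inside the range of the exchanged ones, in which set 1 was lowest and set 2 highest. The mean was 1.92 ± 0.19 (SD, n = 3 sets), or 3.77-fold, with a 95% interval of 1.73 to 2.11 (limma's adjusted p = 2.83e-05). The gene ranked 114 of 10088.

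Irf9 encodes the DNA-binding subunit of ISGF3. The forward arrays gave log2 ratios of 1.08, 0.91 and 0.70 and the exchanged arrays 1.29, 1.11 and 0.88. Set 1 was highest and set 3 lowest in both orientations. The mean was 0.99 ± 0.20 (SD, n = 3 sets), or 1.99-fold, with a 95% interval of 0.80 to 1.19 (limma's adjusted p = 0.000351).

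Irf8 encodes a factor that pairs with PU.1 and is needed for the development of monocytes and macrophages. For this gene the log2 ratios were 0.92, 0.91 and 1.09 on forward arrays and 0.76, 0.87 and 0.91 on exchanged arrays. The 2 orientations almost met, and set 3 was highest in each. The mean was 0.91 ± 0.08 (SD, n = 3 sets), or 1.88-fold, with a 95% interval of 0.78 to 1.04 (limma's adjusted p = 9.31e-05).

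Irf5 encodes a factor that acts with the adaptor MyD88 and drives genes of inflammatory cytokines. Forward arrays gave log2 ratios of 0.49, 0.44 and 0.45, and exchanged arrays gave 0.84, 0.92 and 0.72. The orientations did not overlap, yet every array gave a rise. The mean was 0.64 ± 0.05 (SD, n = 3 sets), or 1.56-fold, with a 95% interval of 0.53 to 0.76 (limma's adjusted p = 0.000239).

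Irf2 encodes a factor known to bind the same elements as IRF1 and to repress many of them. The log2 ratio was 0.20, 0.33 and 0.39 on forward arrays but -0.066, -0.092 and -0.054 on exchanged arrays. The sign thus followed the dye, and the Cy5 signal was the higher one on all 6 arrays whichever RNA it carried. The mean was 0.12 ± 0.05 (SD, n = 3 sets), with a 95% interval of 0.0025 to 0.23, and limma's adjusted p was 0.109. Fitted on forward arrays alone the log2 ratio was 0.30 with an adjusted p of 0.0259 in limma, and on exchanged arrays alone it was -0.071 with an adjusted p of 0.401.

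Irf3 encodes the factor that TBK1 phosphorylates at the start of the interferon response. Ratios of 0.030, 0.027 and -0.012 (log2) were measured on forward arrays and of -0.020, -0.17 and -0.048 on exchanged arrays. All but 1 array lay within 0.05 of 0, and the exception was the exchanged array of set 2. The mean was -0.032 ± 0.038 (SD, n = 3 sets), with a 95% interval of -0.14 to 0.078 (limma's adjusted p = 0.632).

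Irf4 encodes a lymphoid and myeloid factor that, like IRF8, pairs with PU.1. Forward arrays gave -0.12, -0.12 and -0.28 on the log2 scale, and exchanged arrays -0.15, -0.10 and -0.32. All 6 arrays gave a lower value in treated cells, set 3 the lowest in both orientations. The mean was -0.18 ± 0.10 (SD, n = 3 sets), or 0.881-fold, with a 95% interval of -0.32 to -0.046. Limma's adjusted p was 0.0507, and it lay under 0.05 in 5 of 15 alternative fits, over a range of 0.0125 to 0.31.

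**Figure D2:**
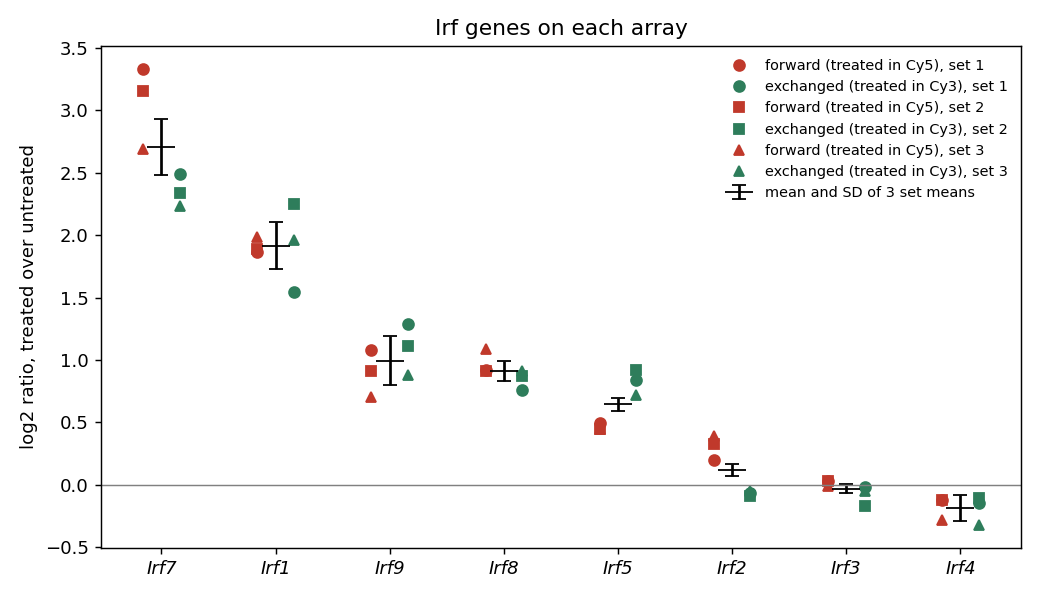
Log2 ratio of treated over untreated RNA for each Irf gene on each of 6 arrays, by dye orientation (colour; forward arrays carry treated RNA in Cy5) and set (symbol), with black bars for the mean and SD of the 3 set means. Irf7, Irf1, Irf9, Irf8 and Irf5 lie above 0 on all 6 arrays, Irf4 lies below 0 on all 6, and Irf2 changes sign with the dye.

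The order of the members is described in tiers, which were drawn from the ranks on these same 6 arrays. Steadiness between tiers therefore follows from how they were drawn and was not tested. Irf7 ranked 1 and Irf1 ranked 2 among the 8 genes on 6 of 6 arrays. Irf9, Irf8 and Irf5 held ranks 3 to 5 on every array, and Irf2, Irf3 and Irf4 held ranks 6 to 8, but the order inside both trios varied.

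Irf7 exceeded Irf1 by 0.79 ± 0.37 on the log2 scale (SD, n = 3 sets), with a smallest gap of 0.088 on a single array. Irf1 exceeded Irf9 by 0.92 ± 0.35, and was higher on 6 of 6 arrays. Irf9 and Irf8 did not differ beyond their spread, with a difference of 0.084 ± 0.28 that was positive on 3 of 6 arrays. Irf8 exceeded Irf5 by 0.27 ± 0.13 over the sets but on only 4 of 6 arrays, and the 3 Irf5 values on exchanged arrays were higher than the 3 on forward arrays. Irf5 exceeded Irf2 by 0.53 ± 0.10 and on 6 of 6 arrays. The remaining steps were 0.15 ± 0.076 between Irf2 and Irf3, positive on 4 of 6 arrays, and 0.15 ± 0.12 between Irf3 and Irf4, positive on 5 of 6. An exact two-sided permutation of signs over 3 sets cannot give a p below 0.25. That was its value for each step except that of Irf9 and Irf8, where the exact p was 0.75. The steps follow the order of these same set means, so the p-values do not test that order.

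Members that are commonly treated as pairs parted widely. Irf7 and Irf3, the closely related factors of interferon induction, differed by 2.74 ± 0.22 on the log2 scale, and Irf7 was higher on 6 of 6 arrays. Irf1 and Irf2, the activator and its antagonist, differed by 1.80 ± 0.16, with Irf1 higher on 6 of 6. Irf8 and Irf4, which share PU.1 as a partner, differed by 1.09 ± 0.18, with Irf8 higher on 6 of 6. The exact two-sided permutation p was 0.25 for each of these 3 pairs, the smallest that 3 sets allow.

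**Figure D3:**
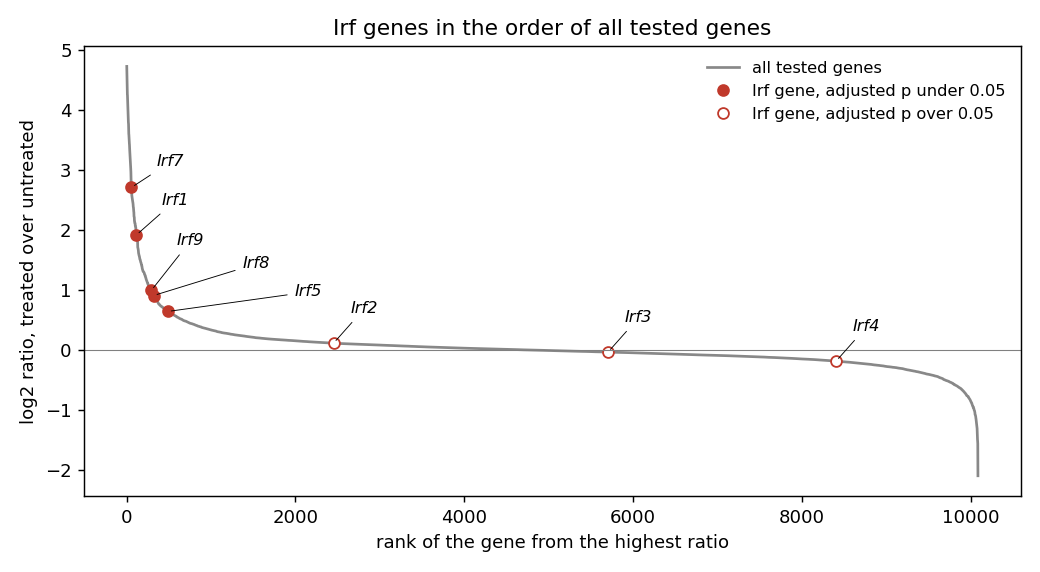
All 10088 tested genes in order of their log2 ratio of treated over untreated RNA, with the 8 Irf genes marked, filled where limma's adjusted p was under 0.05. Irf7 and Irf1 stand at ranks 56 and 114, Irf9, Irf8 and Irf5 at ranks 292, 319 and 487, and Irf2, Irf3 and Irf4 on the flat middle stretch.

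Dye orientation moved several members, as the array-by-array values show. The log2 ratio of Irf7 averaged 3.06 ± 0.33 on forward arrays and 2.35 ± 0.13 on exchanged arrays (SD, n = 3 arrays each). The forward mean thus lay 0.35 above the mean of both orientations, a dye distance larger in size than that of 97.6% of tested genes. Irf2 had a dye distance of 0.19 and Irf5 one of -0.18, larger in size than those of 84% and 83.2% of genes. For Irf1 and Irf4 it was -0.0036 and 0.0078. The median size over all genes was 0.084. For Irf2 the dye distance was larger in size than the treatment ratio, and so it was for Irf3, at 0.047 beside -0.032, while for Irf4 and the 5 genes that rose it was smaller. The source of these distances was not tested.

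**Figure D4:**
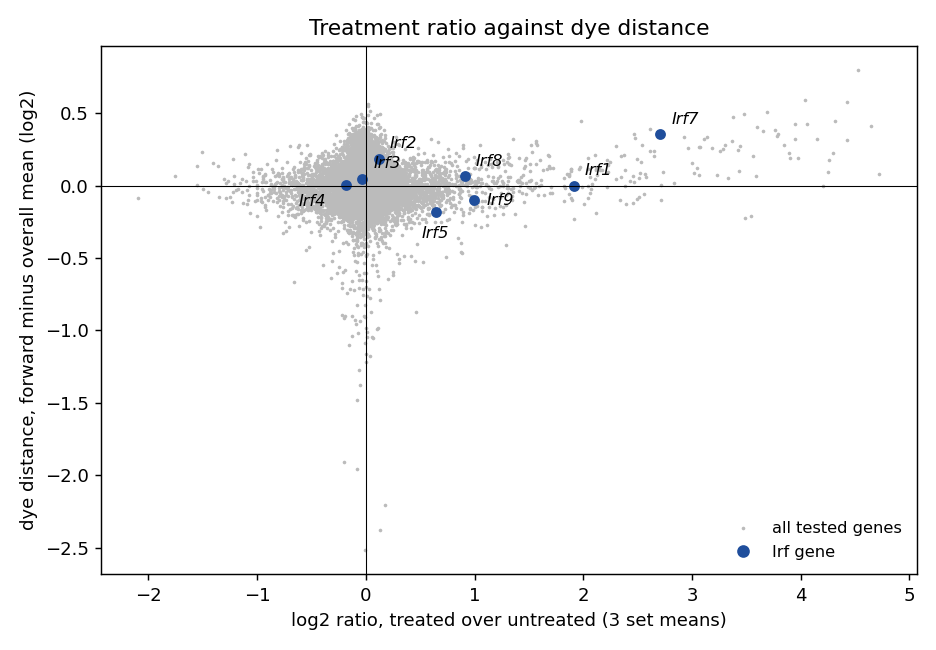
Dye distance (mean of the forward arrays minus the mean of both orientations, log2) against the log2 ratio of treated over untreated RNA, for all tested genes (grey) and the 8 Irf genes (blue). Irf7 has the highest dye distance of the Irf genes at 0.35, Irf2 has a dye distance of 0.19 beside a treatment ratio of 0.12, and Irf1 has one of -0.0036.

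By likeness over the 6 arrays, measured as the root mean square difference in log2 ratio among 9229 genes with values on all 6, the 3 genes nearest to Irf7 were Ube2l6 at 0.14, Stat2 at 0.23 and Trafd1 at 0.31. Their own ratios were 2.65 ± 0.17, 2.65 ± 0.05 and 2.46 ± 0.16 (SD, n = 3 sets). The 3 nearest to Irf4, the member with the lowest ratio, were Aasdhppt, Ttll11 and Clasp2, at 0.044, 0.055 and 0.058. The 2 probes of Ttll11 had means of -0.27 and -0.072 and those of Clasp2 -0.26 and -0.14, so for both genes the closeness is that of an average. Near a ratio of 0 such closeness is common, because most genes lie there.

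The genes around the family were taken from lists chosen with earlier results of these data known, and their counts are read against the 17.1% of all genes that rose and the 16.7% that fell. Without set 3 these shares were 11.1% and 9.36%. Of 13 measured genes listed for interferon induction upstream of IRF3, IRF5 and IRF7, 10 rose and 1 fell, with a median of 0.92. Ifih1, the cytosolic RNA sensor MDA5, rose by 3.90 ± 0.16, and Tlr3, the receptor for double-stranded RNA, by 3.18 ± 0.38 (SD, n = 3 sets; limma's adjusted p = 2.56e-06 and 3.48e-05). Tlr4, the LPS receptor gene, was the one that fell, at -0.69 ± 0.31 (limma's adjusted p = 0.00561). Its 3 probes disagreed, with means of -0.83, -0.64 and -0.073, and the probe nearest 0 was measured on only 4 arrays and did not enter every set mean. Both kinases that phosphorylate IRF3 and IRF7 rose, Ikbke by 0.92 ± 0.05 and Tbk1 by 0.70 ± 0.11. The 2 probes of Ikbke had means of 1.90 and -0.051, so its average describes neither, while those of Tbk1 had 0.69 and 0.72.

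Among 12 interferon ligand and receptor genes, 3 rose and 2 fell, beside the 17.1% and 16.7% of all genes. Ifnb1, the interferon beta gene that IRF3 and IRF7 switch on, rose by 4.30 ± 0.55 (SD, n = 3 sets; limma's adjusted p = 3.86e-05), and Ifna1, an interferon alpha gene, by 0.18 ± 0.02 (adjusted p = 0.0216). The 4 other interferon alpha genes measured did not pass and had log2 ratios of 0.057 to 0.12; probes of these near-identical genes may read one another's transcripts. Ifngr1 and Ifnar2, subunits of the interferon gamma and type I interferon receptors, were the ones that fell, at -0.48 ± 0.06 and -0.31 ± 0.05. The other subunits of these receptors did not fall. Ifngr2 rose by 0.18 ± 0.07 (limma's adjusted p = 0.0391), and Ifnar1, at 0.071 ± 0.07, did not pass (limma's adjusted p = 0.325).

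The JAK-STAT list, which holds the partners of IRF9 and their feedback inhibitors, had 8 of 11 tested members that rose and 0 that fell, with a median of 0.93. Stat2, a subunit of ISGF3 beside IRF9, rose by 2.65 ± 0.05, against 0.99 ± 0.20 for Irf9 itself, and Usp18, which dampens the type I receptor, rose by 3.78 ± 0.28 (SD, n = 3 sets). Limma's adjusted p was 2.3e-06 for Stat2 and 7e-06 for Usp18. Of 14 DNA-binding partners and corepressors of IRFs, 5 rose and 1 fell, at a median of 0.11. Kat2b, 1 of the 5, was higher on only 3 of 6 arrays, and Tcf3, the one that fell, was lower on 4 of 6. Batf2 and Batf, leucine zipper partners of IRF1, IRF4 and IRF8, rose by 1.57 ± 0.15 and 0.89 ± 0.14. Spi1, the gene of PU.1, rose by 0.40 ± 0.07.

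Lists of genes known as driven by particular IRFs differed in their counts. All 15 tested genes known as bound by IRF3, IRF7 or ISGF3 rose, with a median log2 ratio of 3.54, and Ifit2, which binds viral RNA, and Rsad2, the gene of viperin, had the highest at 4.65 ± 0.12 and 4.53 ± 0.29 (SD, n = 3 sets). Of 21 genes known as driven by IRF1, 18 rose and 0 fell, at a median of 1.35. Gbp3 and Gbp2, genes of guanylate-binding proteins, led them at 4.26 ± 0.34 (probe means 5.06 and 3.46) and 3.84 ± 0.36.

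Of 17 genes known as driven by IRF5 or IRF8 in myeloid cells, 7 rose and 3 fell, at a median of 0.12. Klf4, 1 of the 3 that fell, was lower on 5 of 6 arrays. Il6 and Pml led the rises at 3.26 ± 0.62 and 2.13 ± 0.10, while Cst3, the gene of cystatin C, and Csf1r, the receptor for macrophage colony-stimulating factor, were lower at -0.19 ± 0.05 and -0.19 ± 0.06 (limma's adjusted p = 0.0232 and 0.0249). Il12b, a textbook target of IRF1, IRF5 and IRF8, had a log2 ratio of 0.079 ± 0.26 with 3 of 6 arrays higher (limma's adjusted p = 0.582). Of 9 genes known as driven by IRF4, 2 rose (22.2%, near the 17.1% of all genes) and 0 fell, at a median of 0.073. These were Il10, an inhibitory cytokine gene, at 1.70 ± 0.30, and Ccl22, a chemokine gene, at 0.77 ± 0.10. The 3 probes of Ccl22 had means of -0.030, 1.04 and 1.45. In the 4 lists with 0 falls, the number of falls was also 0 at an unadjusted p under 0.05. Some genes stand in more than 1 list, and no test compared the lists.

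**Figure D5:**
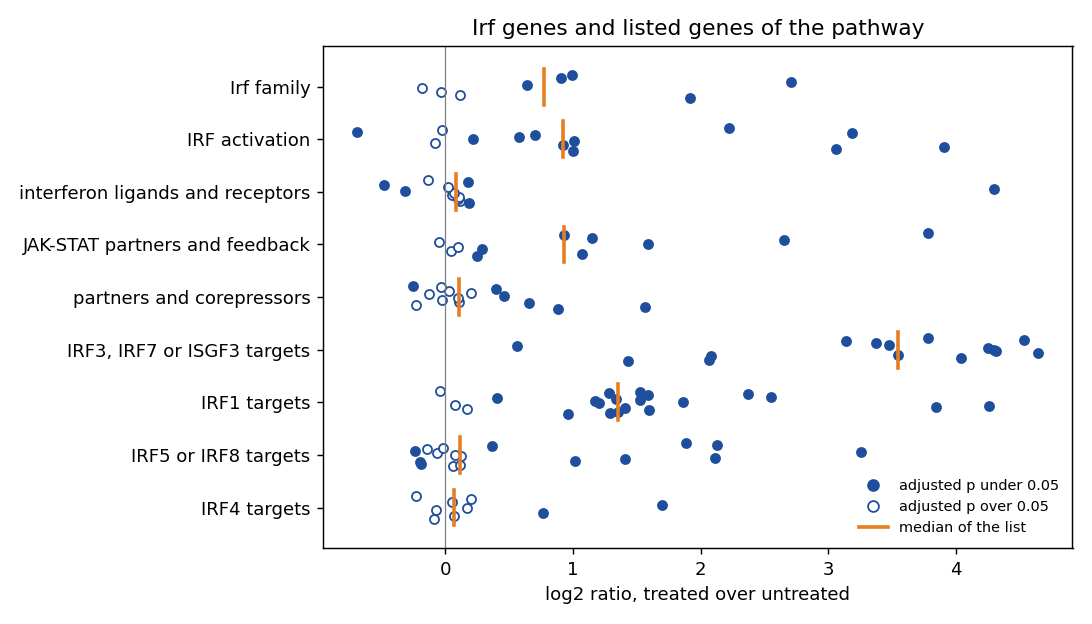
Log2 ratio of treated over untreated RNA for the 8 Irf genes (top) and for the tested genes of 8 pathway lists, 1 point per gene, filled where limma's adjusted p was under 0.05, with the median as an orange line. The medians run from 0.073 for genes known as driven by IRF4 to 3.54 for those bound by IRF3, IRF7 or ISGF3, and the Irf genes have a median of 0.78.

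Across the series, arrays of the same dye orientation correlated with r of 0.705 to 0.899 over probes. As deposited, before the ratios were turned, forward and exchanged arrays had r between -0.8 and -0.428. Of 9 measured macrophage markers 6 rose and 1, Csf1r, fell, where 17.1% of all genes rose and 16.7% fell. Several markers thus moved with the Irf genes that rose, and their part in the Irf results was not tested. Of the 14 tested markers of T cells, B cells and fibroblasts, 0 rose and 0 fell in limma's test, with log2 ratios of -0.11 to 0.21, and 1 was higher at an unadjusted p under 0.05. As the table holds ratios, these markers say nothing of how much of any cell type was present.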

How the data were processed

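The authors deposited 1 log2 ratio for each of 16281 features on each of 6 arrays. The log base was read from the largest value, which is log2 of 100. How the arrays were scanned, background-corrected and normalized is not given in the sources used here. No channel intensities were used, so dim features could not be left out. Exact zeros made up 8.16% to 13.9% of an array's features and were treated as not measured. Features were named from the platform annotation, and 13694 of 13738 with 1 symbol matched a RefSeq gene by identifier.

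Ratios of exchanged arrays (treated RNA in Cy3) were turned by a factor of -1. A probe's set mean needed both arrays of the set, probes of a gene were averaged, and 10088 genes with at least 2 set means were tested against 0 with limma 3.58.1 under R 4.3.3 (two-sided, Benjamini-Hochberg adjustment over all genes, threshold 0.05). In simulated set means for this comparison over 10088 genes, 50 genes were changed at each of 4 sizes from 0.5 to 4 (log2), and 100% were called at each size. The same simulation gave 17 false calls, 7.83% of all its calls, which is above the share that a threshold of 0.05 aims at. Its noise was drawn independently for each array, and no change under 0.5 was tried. The median size of the ratios that passed in the data was 0.35. The simulation therefore says nothing of changes as small as those of Irf2, Irf3 and Irf4.

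Members and lists were chosen with earlier results of these data known. All 8 members are named. From each list, up to 2 top rises and 2 top falls are named, among genes that passed with the same sign on every measured array. Tbk1, Ikbke, Spi1, Il12b, the other interferon alpha genes, Ifngr2, Ifnar1, Kat2b, Tcf3 and Klf4 were added after their values were seen. Alternatives covered the handling of zeros and probes, the arrays as separate replicates without and with the set as block, centring, scaling, quantile normalization, each orientation alone and each set left out.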

Additional observations from a re-analysis of the deposited data

How the results depend on the processing

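Irf1, Irf5, Irf7, Irf8 and Irf9 kept their direction and passed the threshold in each of 15 alternatives. Irf7 lay between 2.35 and 3.06 and Irf5 between 0.46 and 0.83. Each Irf gene had 1 probe with values on all 6 arrays, so the alternatives for zeros and probes could not move its ratio. The fits of the 6 arrays with a dye term returned the same ratio as well. In these alternatives only the p-value could differ. Irf2 turned to -0.071 and Irf3 to 0.015 in 1 alternative each, exchanged arrays alone for Irf2 and forward arrays alone for Irf3, where fewer arrays enter and a dye effect does not cancel. Over all genes the number passing was 3403, and 1952 to 3373 when 1 set was left out, the lowest without set 3. The Irf genes that rose numbered 5 without set 3 too. Same-numbered arrays deviated together from their orientation's mean with r of 0.256, 0.212 and 0.0999 as deposited, against -0.297 to 0.112 for arrays of different number, and once the ratios were turned these signs are opposite. A set was counted as 1 replicate because its arrays may share RNA extracts, which these correlations do not settle. With turned ratios, same-numbered arrays had r of -0.256, -0.212 and -0.0999, so their deviations partly cancel in a set mean. The SDs of the set means, and the p-values built on them, may therefore be too small. With the 6 arrays, a dye term and the set number as replicate block, 3510 genes passed, and Irf4 had an adjusted p of 0.0125 in limma. Without the block 3714 passed, with 0.0204 for Irf4. Signal over background was not measured here.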
